A study of Mus musculus with 6 samples.

Results

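SOX proteins are transcription factors that share one DNA-binding domain, the HMG box. The analysis covered 10 SOX genes of neural, neuroendocrine and progenitor cells (Sox1, Sox2, Sox4, Sox5, Sox6, Sox9, Sox11, Sox12, Sox13 and Sox21), taken by symbol from the 23361 gene symbols of the expression table. RNA was measured in 6 libraries of SMC, short for SCLC metastasizing cells, where SCLC is small-cell lung cancer. SMC are NCAM-high cells, low or negative for CD44, sorted from tumours that arose in the lungs of Rb1 L/L, Trp53 L/L mice (conditional alleles of both tumour suppressors) on a mixed C57Bl/6, Balb-c and S129 background. The mice received a Cre adenovirus through the trachea to recombine these alleles, and the study's genotyping found both genes deleted in the sorted cells. All libraries therefore share the Rb1 and Trp53 alleles, the lung origin and culture in serum medium. Cells carrying a control virus (SMC-Ctrl, 3 libraries) were compared with cells carrying a virus for TAZ-4SA (SMC-TAZ-4SA, 3 libraries), a mutant of the transcriptional co-activator TAZ that is constitutively active, to ask how TAZ changes the expression state of SMC. Infected cells were selected with puromycin. How many tumours or clones the line came from, and whether the libraries of a group are separate cultures, is not given in the sources used here, so the p-values reflect no more than library-to-library spread, which may be technical. The data statement of the study describes the series as a comparison of SMC with non-SMC, whereas the sample titles and design text name the control and TAZ-4SA viruses. The titles were followed.

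SOX factors bind the minor groove of DNA, bend it, and usually act with a partner factor on a neighbouring site. They are divided into subgroups by sequence. SOXB1 factors (Sox1, Sox2) maintain neural progenitors, and Sox2 also marks the airway epithelium and is a known amplified oncogene of human SCLC. The SOXB2 factor Sox21 counteracts SOXB1 in neurogenesis. SOXC factors (Sox4, Sox11, Sox12) promote neuronal differentiation and survival of progenitors. SOXD factors (Sox5, Sox6, Sox13) carry no activation domain and act with other factors, Sox5 and Sox6 as partners of Sox9 in cartilage. The SOXE factor Sox9 directs cartilage formation and is expressed at the distal tips of the developing lung.

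The promoters are shown first because the members moved in different directions. RefSeq start sites (build GRCm38.p6) gave windows of 300 bases, from 250 before to 50 after the start, for 9 of the 10 genes, with 1 window each except for Sox6 with 6. Sox9 had no window. The windows of Sox1 and Sox12, which fell in SMC-TAZ-4SA, are set beside those of Sox4, which rose, and of Sox6 at its first start site. Sequences run 5′ to 3′ on the strand of the gene, and capitals mark matches to GGAATG (the core bound by TEAD factors, the DNA-binding partners of TAZ), ATGCAAAT (the octamer bound by POU factors), ACAAAG and AACAAT (SOX motifs) and CAGCTG (an E-box, the element of bHLH factors), searched on both strands. The Sox1 window lies at chr8:12395269-12395568 on the plus strand, the Sox12 window at chr2:152397997-152398296, the Sox4 window at chr13:28953650-28953949 and the Sox6 window at chr7:116038695-116038994, these 3 on the minus strand.
Sox1: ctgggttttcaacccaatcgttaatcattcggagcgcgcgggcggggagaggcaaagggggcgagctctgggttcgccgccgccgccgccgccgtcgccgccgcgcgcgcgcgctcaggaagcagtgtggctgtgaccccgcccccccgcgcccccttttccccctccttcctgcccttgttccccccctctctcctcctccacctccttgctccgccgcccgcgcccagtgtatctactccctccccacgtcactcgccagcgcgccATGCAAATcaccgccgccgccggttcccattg
Sox12: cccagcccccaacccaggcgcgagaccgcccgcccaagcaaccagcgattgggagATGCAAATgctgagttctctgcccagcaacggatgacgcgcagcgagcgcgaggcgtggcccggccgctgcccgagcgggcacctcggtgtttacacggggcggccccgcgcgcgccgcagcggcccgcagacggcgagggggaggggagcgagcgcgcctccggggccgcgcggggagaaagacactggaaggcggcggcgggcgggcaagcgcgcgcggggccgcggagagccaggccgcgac
Sox4: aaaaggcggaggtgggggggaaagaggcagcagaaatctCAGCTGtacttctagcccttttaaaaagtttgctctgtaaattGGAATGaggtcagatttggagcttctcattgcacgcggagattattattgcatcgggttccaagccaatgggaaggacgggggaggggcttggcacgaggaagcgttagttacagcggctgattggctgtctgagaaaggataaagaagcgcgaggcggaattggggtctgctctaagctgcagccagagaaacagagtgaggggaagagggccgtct
Sox6: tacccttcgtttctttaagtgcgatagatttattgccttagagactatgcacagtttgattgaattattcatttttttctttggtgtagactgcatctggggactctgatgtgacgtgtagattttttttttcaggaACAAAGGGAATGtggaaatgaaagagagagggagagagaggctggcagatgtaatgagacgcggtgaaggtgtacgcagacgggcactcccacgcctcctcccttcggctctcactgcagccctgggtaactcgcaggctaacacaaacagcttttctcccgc

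The octamer stood in 2 of the 14 windows of the members and in 1.74% of the 32851 RefSeq windows. The 2 were those of Sox1 (19 bases after the start, in the transcribed part) and Sox12 (195 bases before it). GGAATG stood in 4 of the 14 windows, which belong to 3 members, Sox4, Sox5 and Sox6, and in 14.7% of all windows. In Sox4 it lay 168 bases before the start and in the first Sox6 window 107 bases before it, directly after an ACAAAG. Sox4 was higher and Sox5 and Sox6 were lower in SMC-TAZ-4SA, so genes with this match went both ways. CAGCTG was found in 3 of the 14, for Sox4, Sox6 and Sox11 (16.3% of all windows). ACAAAG was in 6, for Sox2 and Sox6 (18.7%), and AACAAT in 1, for Sox6 (10.7%). With 6 windows Sox6 had more sequence in which a match could fall. The only Sox5 window (chr6:143947057-143947356, minus strand) lay inside the annotated gene, far from its 5′ end at 144781977, and that end was not searched. The GC content was 76.7% in the Sox12 window, 70.7% in that of Sox1, 52.0% in that of Sox4 and 47.0% in the first of Sox6. The motifs were chosen after these sequences were read, so the shares over all windows give no test of enrichment. These matches describe the letters of a window and not binding.

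The 10 genes lie on 10 chromosomes. In the GENCODE M21 annotation of GRCm38, the assembly of mm10, 6 of them (Sox1, Sox2, Sox4, Sox11, Sox12 and Sox21) had a single exonic block and 4 had several. Sox2 (chromosome 3, 34650405 to 34652461) lies inside an intron of the non-coding gene Sox2ot, which is on the same strand and reached no more than 0.0492 FPKM. Sox4, Sox5 and Sox21 each share exonic bases with a gene on the opposite strand. Whether strand was used in counting is not given in the sources used here, so reads of these partners cannot be told apart from reads of the members.

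The libraries were described by FPKM values, that is, fragment counts scaled to transcript length and to the size of the library. Being per length, they allow levels of different genes to be compared, but they keep no read number, and the depth of each library is unknown. They summed to between 284422 and 297034 per library in SMC-Ctrl and between 324938 and 361800 in SMC-TAZ-4SA, highest in SMC-TAZ-4SA replicate 1. Every SMC-TAZ-4SA sum thus lay above every control, and results with libraries scaled to the same total are given at the end. On the log2 scale Pearson's r between libraries was 0.990 to 0.997 within groups and 0.654 to 0.664 between them, across genes, which are not independent replicates. SMC-TAZ-4SA replicate 1 correlated at 0.991 and 0.990 with its group, against 0.997 between the others. Wwtr1, the gene of TAZ, was at 0.162, 0.105 and 0.162 FPKM in SMC-Ctrl and at 31.7, 36.0 and 35.8 FPKM in SMC-TAZ-4SA. These values may include RNA from the TAZ-4SA virus, so they cannot tell the introduced TAZ from the cells' own gene. The neuroendocrine identity of SMC was checked on Chga, for the granule protein chromogranin A. In SMC-Ctrl it was at 93.1, 96.8 and 92.7 FPKM, and at 0.404, 0.142 and 0.439 FPKM in SMC-TAZ-4SA, where the marker is nearly absent. Of 8 neuroendocrine markers 7 were lower there and 1, Ncam1, was higher. Ncam1 encodes NCAM, the marker by which SMC were sorted. The study reported less NCAM protein with TAZ-4SA by western blot, so this RNA and the protein went different ways.

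With active TAZ most SOX genes of SMC were lower. Sox1, the highest SOX gene of SMC-Ctrl, fell from 76.3 ± 2.86 to 0.0321 ± 0.00883 FPKM (SD, n = 3), and Sox6, Sox21, Sox12, Sox13, Sox5 and Sox11 fell as well. Sox9 rose from 0.203 ± 0.0257 to 16.4 ± 2.31 FPKM and Sox4 from 19.2 ± 3.32 to 45.5 ± 15.6 FPKM. For Sox2 the means were 4.11 ± 0.424 and 5.01 ± 0.722 FPKM, a difference below the threshold of the test. A lower level in these bulk samples cannot tell fewer cells that express a gene from less RNA per cell.

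Groups were compared with limma on log2(FPKM + 1) over the 12141 genes with 1 FPKM or more in no fewer than 3 libraries, with Benjamini-Hochberg adjusted p-values and a threshold of 0.05. Of the 10 members, 9 were called, 7 lower and 2 higher. Of all tested genes 80.3% were called, 39.7% lower and 40.7% higher, so the share of members called lies near the background. The groups did not overlap for 9 members and for 82.4% of all tested genes. All 10 reached the filter, but Sox1, Sox5, Sox6 and Sox13 did so only through SMC-Ctrl and Sox9 only through SMC-TAZ-4SA, so these 5 had to differ in the direction seen, and the split by direction over all 10 is a description only. Of the 5 that stood at 1 FPKM or more in all libraries, Sox11, Sox12 and Sox21 were lower, Sox4 was higher and Sox2 was not called. The median log2 fold change was −1.72 over the 10 members, 5 of them with a direction fixed by the filter, and the middle value of the other 5 was that of Sox11, −1.32. It was 0.02 over all tested genes. This scale understates the change of low genes.

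**Figure D1:**
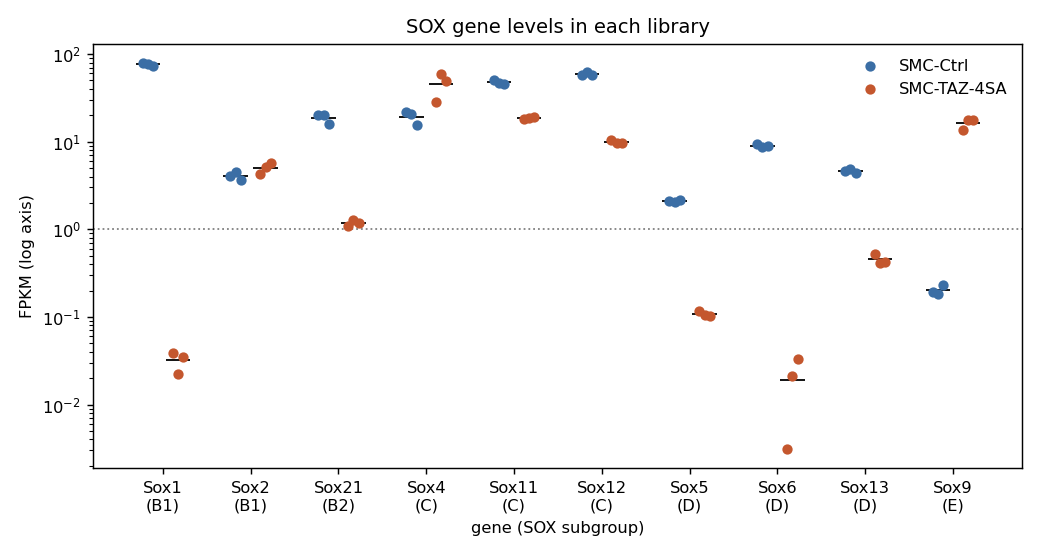
FPKM of the 10 SOX genes (log axis) in each of the 3 SMC-Ctrl (blue) and 3 SMC-TAZ-4SA (orange) libraries, with the SOX subgroup under each name, black lines at group means and a dotted line at 1 FPKM. The groups overlap for Sox2 only, and Sox9 and Sox4 are the genes whose SMC-TAZ-4SA points all lie above the SMC-Ctrl points.

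Among SOXB genes, the progenitor factor Sox1 (chromosome 8, 12395295 to 12400126) was at 78.4, 77.4 and 73.0 FPKM in SMC-Ctrl replicates 1 to 3 and at 0.0390, 0.0222 and 0.0350 FPKM in SMC-TAZ-4SA replicates 1 to 3. Every SMC-TAZ-4SA library was thus close to no signal. The log2 fold change was −6.23 (limma, SE 0.0581 and adjusted p = 8.52e-11), the 7th lowest of the 12141 genes on this scale. Its paralogue Sox2 was at 4.09, 4.53 and 3.69 FPKM in SMC-Ctrl and at 4.25, 5.11 and 5.68 FPKM in SMC-TAZ-4SA. The lowest SMC-TAZ-4SA library lay among the controls and the other 2 lay above them. The difference was 0.23 on the log2 scale (95% interval −0.01 to 0.47, adjusted p = 0.0697 by limma). Without SMC-TAZ-4SA replicate 1 Sox2 passed (0.33, adjusted p = 0.00687), while its difference shrank to 0.05 when every library was scaled to the same total (adjusted p = 0.702). Over the 15 alternatives the adjusted p of Sox2 lay between 0.00687 and 0.703. The SOXB1 genes therefore did not move together, and Sox2 took 1.63% to 1.83% of the summed SOX level in SMC-Ctrl and 4.56% to 5.55% in SMC-TAZ-4SA.

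Sox21 (chromosome 14, 118233232 to 118237030), the SOXB2 repressor, was at 19.9, 20.4 and 16.1 FPKM in SMC-Ctrl and at 1.09, 1.29 and 1.17 FPKM in SMC-TAZ-4SA. Its groups lay far apart, with a mean FPKM 15.9-fold lower in SMC-TAZ-4SA and, with the pseudocount of 1, a log2 fold change of −3.17 (limma, SE 0.0959 and adjusted p = 1.57e-08).

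SOXC genes held the larger part of the summed SOX level in both groups, and they split. Sox11 (chromosome 12, 27334264 to 27342574), which the study counted among its small-cell neuroendocrine genes, was at 51.1, 47.0 and 45.8 FPKM in SMC-Ctrl and at 18.0, 18.8 and 18.9 FPKM in SMC-TAZ-4SA. Its direction is therefore not independent evidence. It was 2.58-fold lower on average, with a log2 fold change of −1.32 (limma, SE 0.0630 and adjusted p = 2.69e-07), the smallest fall among the 7 lower members on this scale. It still held 18.6 ± 0.507 FPKM (SD, n = 3), so that it became the second SOX gene by level in SMC-TAZ-4SA. Sox12 (chromosome 2, 152393611 to 152398063), the weakest activator of the subgroup, was at 57.5, 62.1 and 57.1 FPKM in SMC-Ctrl and at 10.4, 9.70 and 9.73 FPKM in SMC-TAZ-4SA. It was 5.93-fold lower, with a log2 fold change of −2.45 (limma, SE 0.0612 and adjusted p = 5.11e-09).

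Sox4 (chromosome 13, 28948919 to 28953713) went the other way. It was at 21.7, 20.4 and 15.4 FPKM in SMC-Ctrl and at 28.4, 58.9 and 49.1 FPKM in SMC-TAZ-4SA. All SMC-TAZ-4SA libraries lay above all controls, but replicate 1 lay nearer to the controls than to the other libraries of its group. The mean was 2.37-fold higher, with a log2 fold change of 1.16 (limma, SE 0.251 and adjusted p = 0.00299). This SE was the largest of the 10 members. Without SMC-TAZ-4SA replicate 1, the library that stood apart, the log2 fold change was 1.46 (adjusted p = 2.77e-05), and without SMC-TAZ-4SA replicate 2 it was 0.94 (adjusted p = 0.00793). The level of Sox4 relative to Sox11 was 0.424, 0.434 and 0.336 in SMC-Ctrl and 1.58, 3.13 and 2.59 in SMC-TAZ-4SA. Sox11 exceeded Sox4 in every control library, and Sox4 exceeded Sox11 in every SMC-TAZ-4SA library.

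**Figure D2:**
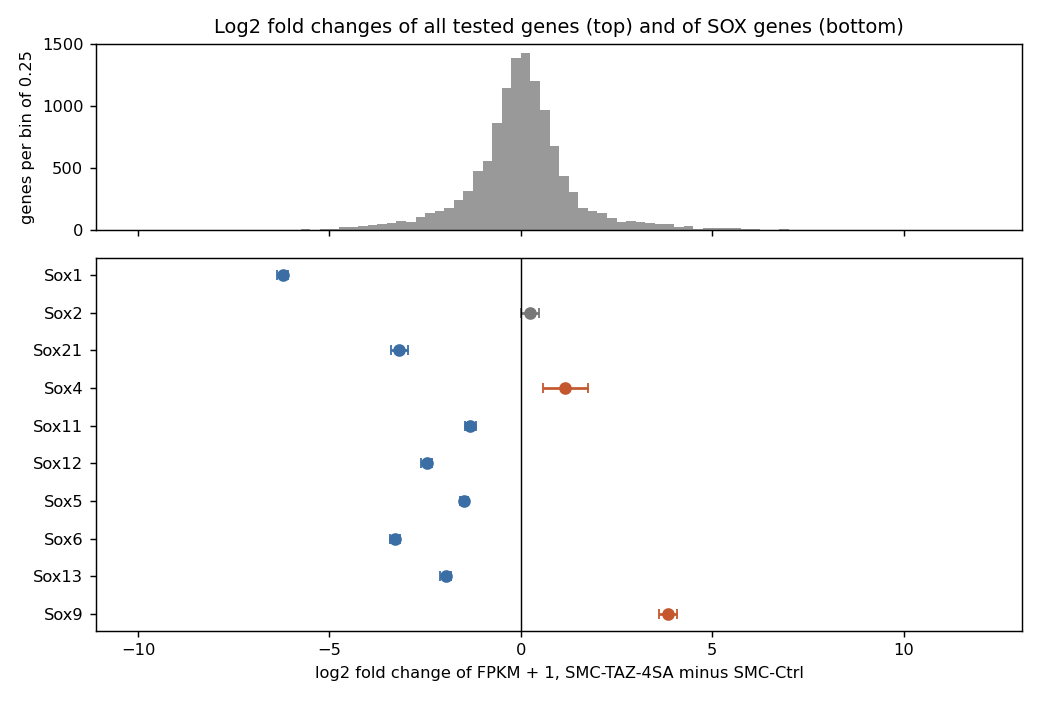
Log2 fold changes of FPKM + 1, SMC-TAZ-4SA minus SMC-Ctrl: above, the number of tested genes per bin of 0.25 for all 12141 genes; below, the 10 SOX genes with 95% intervals from limma, blue where lower, orange where higher and grey where not called. Sox1 lies at −6.23 in the far left tail, Sox9 at 3.84 to the right, and the interval of Sox2 spans 0.

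All SOXD genes fell. Sox6 (chromosome 7, 115470872 to 116038796), a factor of cartilage, muscle and red cells, was at 9.47, 8.67 and 8.80 FPKM in SMC-Ctrl and at 0.00311, 0.0212 and 0.0335 FPKM in SMC-TAZ-4SA. The SMC-TAZ-4SA values differ among themselves by large factors, but at this level each can rest on few fragments. The log2 fold change was −3.29 (limma, SE 0.0564 and adjusted p = 7.68e-10). Sox13 (chromosome 1, 133382303 to 133424377), known for its role in gamma-delta T cells, was at 4.67, 4.91 and 4.44 FPKM and at 0.520, 0.415 and 0.426 FPKM, with a log2 fold change of −1.96. Sox5 (chromosome 6, 143828425 to 144781977), the partner of Sox6 in cartilage, was at 2.10, 2.06 and 2.15 FPKM and at 0.118, 0.105 and 0.102 FPKM, with a log2 fold change of −1.48. For both genes every control library lay above every SMC-TAZ-4SA library, and the adjusted p was 1.59e-08 for Sox13 and 1.61e-08 for Sox5 by limma. Together the SOXD genes fell from 15.8 ± 0.437 to 0.581 ± 0.0526 FPKM (SD, n = 3, summed over 3 genes, with no test).

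Sox9 (chromosome 11, 112782224 to 112787760) rose from a low level. It was at 0.194, 0.183 and 0.232 FPKM in SMC-Ctrl and at 13.7, 17.7 and 17.7 FPKM in SMC-TAZ-4SA. No control library reached 1 FPKM and every SMC-TAZ-4SA library reached 13.7 FPKM or more. The log2 fold change was 3.84 (limma, SE 0.0996 and adjusted p = 6.38e-09), the 239th highest of all tested genes. The partners Sox5 and Sox6, with which Sox9 acts in cartilage, were at most 0.118 FPKM in the libraries in which Sox9 was high.

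The size of the fold change depended on the pseudocount for members near 0, or near 1 FPKM, in a group. With log2(FPKM + 0.01) the log2 fold change became −10.85 for Sox1, −8.43 for Sox6, −4.16 for Sox5, −3.34 for Sox13, −3.97 for Sox21 and 6.26 for Sox9, while it stayed at −1.37 for Sox11 and −2.57 for Sox12. The plot of alternative processing choices shows the same for each gene.

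**Figure D3:**
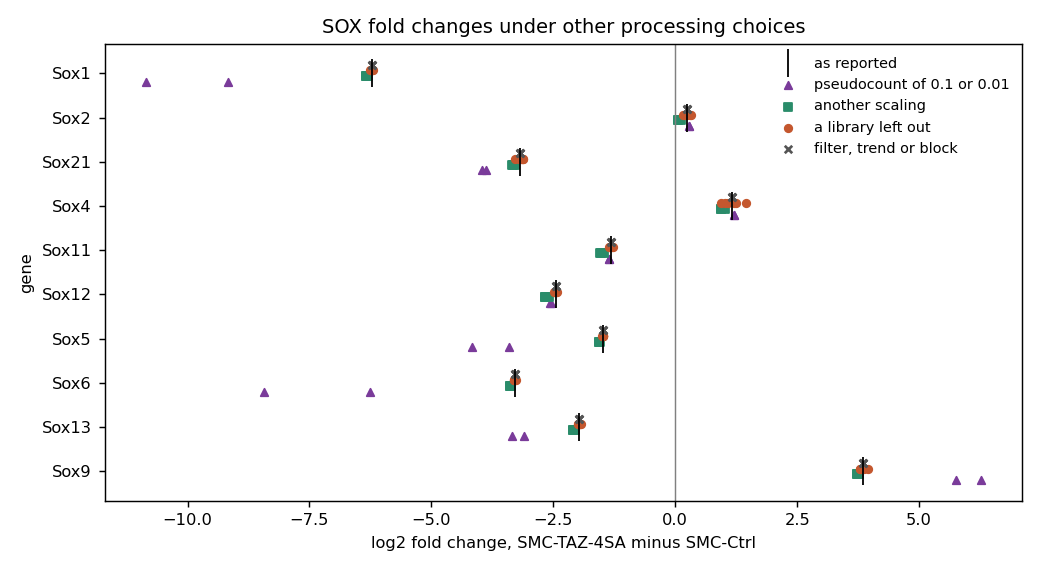
Log2 fold change of each SOX gene, SMC-TAZ-4SA minus SMC-Ctrl, as reported (vertical bar) and under a smaller pseudocount (triangles), another scaling (squares), with a library left out (circles) and under another filter, variance model or with the replicate block (crosses). No gene changes sign, and the smaller pseudocounts move Sox1, Sox5, Sox6, Sox9 and Sox13 the most.

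The order of SOX levels changed. In SMC-Ctrl it was Sox1, Sox12, Sox11, Sox4, Sox21, Sox6, Sox13, Sox2, Sox5 and Sox9, from 76.3 down to 0.203 FPKM. Neighbours in this order had separate ranges over the 3 libraries except Sox4 and Sox21 (15.4 to 21.7 and 16.1 to 20.4 FPKM) and Sox13 and Sox2 (4.44 to 4.91 and 3.69 to 4.53 FPKM). In SMC-TAZ-4SA the order was Sox4, Sox11, Sox9, Sox12, Sox2, Sox21, Sox13, Sox5, Sox1 and Sox6, from 45.5 down to 0.0193 FPKM. Here the ranges of Sox1 and Sox6 overlapped. Sox11 and Sox9 lay close together, from 18.0 to 18.9 and from 13.7 to 17.7 FPKM.

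The summed level of the 10 genes was 249, 248 and 227 FPKM in SMC-Ctrl and 76.5, 112 and 103 FPKM in SMC-TAZ-4SA. The SMC-TAZ-4SA mean was 40.3% of the SMC-Ctrl mean, a description without a test, since the members were chosen with results known. SOXB1 genes made up 33.1% to 33.8% of this sum in SMC-Ctrl and 4.58% to 5.60% in SMC-TAZ-4SA, and SOXD genes 6.32% to 6.79% and 0.483% to 0.838%. SOXC genes made up 52.2% to 52.3% in SMC-Ctrl and 74.2% to 78.0% in SMC-TAZ-4SA, of which Sox4 alone held 6.79% to 8.71% and 37.2% to 52.6%. Sox9 went from 0.0738% to 0.102% of the sum to 15.8% to 17.9%. Sox11 kept a like share, 19.0% to 20.5% in SMC-Ctrl and 16.8% to 23.5% in SMC-TAZ-4SA, with overlapping ranges.

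**Figure D4:**
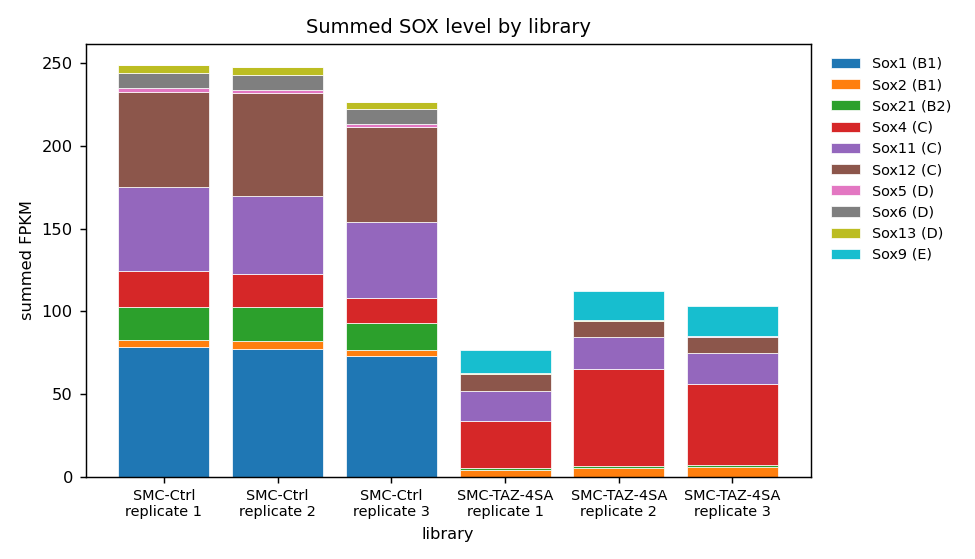
FPKM of the 10 SOX genes stacked for each library, with the subgroup of each gene in the legend and the axis starting at 0. Sox1, Sox12 and Sox11 fill most of the 227 to 249 FPKM of the SMC-Ctrl libraries, and Sox4, Sox11 and Sox9 most of the 76.5 to 112 FPKM of the SMC-TAZ-4SA libraries.

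The other 10 SOX genes of the mouse stayed under 1 FPKM throughout and did not reach the filter. Sox8, the SOXE relative of Sox9, was at 0.0174, 0.0477 and 0.0179 FPKM in SMC-Ctrl and at 0.787, 0.760 and 0.876 FPKM in SMC-TAZ-4SA, with each SMC-TAZ-4SA library above every control. When limma was run with no filter on low values, Sox8 rose by 0.81 on the log2 scale (SE 0.0313 and adjusted p = 1.65e-06), while Sox3, Sox7, Sox15, Sox18 and Sox30 did not pass, with adjusted p from 0.139 to 0.982. The third SOXE gene, Sox10, the factor of Schwann cells and other neural crest derivatives, was listed at 0 in all libraries, as were Sox14, Sox17 and Sry. Sox3, Sox7, Sox15, Sox18 and Sox30 reached no more than 0.189 FPKM. An exact 0 in these data may be an estimate that failed, since Rps12 and Rps28, ribosomal genes that every cell uses, were at 0 throughout.

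Factors that bind DNA beside SOX proteins went both ways. In this and the following lists, a gene that reached the filter through 1 group only could differ in 1 direction only. The counts and medians of the lists are therefore descriptions. Over all tested genes 40.7% were higher and 39.7% lower, with a median log2 fold change of 0.02. Of 7 POU and PAX genes 4 were tested, with 2 higher, 2 lower and a median log2 fold change of 0.42. Pax6, which acts with Sox2 in the eye, rose from 0.0208, 0.0190 and 0 FPKM in SMC-Ctrl to 5.50 ± 0.346 FPKM, and Pou3f1 rose from 0.0788 ± 0.0251 to 3.79 ± 0.286 FPKM (SD, n = 3). The octamer-binding factor Pou2f1 fell by 1.31 on the log2 scale. Pou3f4, also of this family, was lower too, at 3.44, 3.29 and 3.18 FPKM in SMC-Ctrl and 0.0320, 0.0367 and 0.172 FPKM in SMC-TAZ-4SA. Pou5f1, the pluripotency partner of Sox2, was listed at 0 in all libraries.

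Of 4 genes that Sox4 and Sox11 activate in neurons or embryos, 3 were tested, with 2 higher and 1 lower (median log2 fold change 1.32). The neuronal tubulin gene Tubb3 rose from 4.35 ± 0.317 to 34.4 ± 1.57 FPKM and Tead2, which encodes a DNA-binding partner of TAZ, from 32.2 ± 1.87 to 81.8 ± 5.48 FPKM (SD, n = 3), with Sox4 higher and Sox11 and Sox12 lower in the same libraries. The microtubule gene Map2 fell by 0.52 on the log2 scale. Of 11 cartilage genes activated by Sox9 with Sox5 and Sox6, 4 were tested, of which 2 rose, 1 fell and 1 missed the threshold (median log2 fold change 1.04). The collagen genes Col2a1 and Col11a1 rose by log2 1.94 and 1.92, Col2a1 to 3.02, 2.68 and 2.94 FPKM, and Col9a2 fell by 1.92 on the log2 scale. Cartilage genes below the filter also went both ways. Acan, for the cartilage proteoglycan aggrecan, was at 0.886, 1.02 and 1.11 FPKM in SMC-TAZ-4SA and at 0.00436 FPKM on average in SMC-Ctrl. Matn3 was higher too, with means of 0.00527 FPKM in SMC-Ctrl and 0.290 FPKM in SMC-TAZ-4SA. Comp (means of 0.299 and 0.0409 FPKM) and Hapln1 (0.0966 FPKM and listed at 0) were lower in SMC-TAZ-4SA. Matn1 was listed at 0 throughout.

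Of 10 neural progenitor genes, 6 of the 9 tested were higher and 3 lower (median 2.47). Vim, Slc1a3, Notch1 and Pax6, which is also in the POU and PAX list, met the filter by their SMC-TAZ-4SA values alone. Prom1 and Hes5 met it by their SMC-Ctrl values alone. Only Nes and Hes1, which were higher, and Msi1, which was lower, could have gone either way. Nes, for the progenitor filament nestin, rose from 4.20 ± 0.241 to 118 ± 5.56 FPKM and Vim, which mesenchymal cells also express, rose by log2 10.45, while Prom1 (−2.20) and Msi1 (−1.68) fell, and Hes5 from 3.45, 3.06 and 2.55 FPKM to values listed at 0. The astroglial transporter gene Slc1a3 was listed at 0 in SMC-Ctrl and at 8.30, 7.41 and 8.14 FPKM in SMC-TAZ-4SA. Fabp7 was listed at 0 in all libraries.

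The genes with the profiles nearest to the leading members were found by Euclidean distance over the 6 log2(FPKM + 1) values. For Sox1 they were Cadps2 (0.363), Ffar4 (0.439) and Scg3 (0.453), the first and last of which encode proteins of dense-core vesicle secretion. For Sox4 they were Fat1 (0.550), Sorcs2 (0.664) and Piezo1 (0.672). Fat1, a large cadherin, also had its lowest SMC-TAZ-4SA value, 26.4 FPKM, in replicate 1, against 43.4 and 43.9 FPKM. With 2 groups of 3 libraries such distances mostly reflect the level and the group difference.

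Markers of other cells were measured beside these genes. Glial markers, of which 2 of 10 were tested, fell with the SOX genes (Mbp with a log2 fold change of −1.88 and Erbb3 with −2.06), and Olig1, Olig2 and Cdh19 were listed at 0. Their summed level was 65.1 to 67.2 FPKM in SMC-Ctrl and 15.0 to 17.5 FPKM in SMC-TAZ-4SA. All 5 tested of 9 fibroblast markers were higher, of which Col1a1, Col1a2, Col3a1 and Pdgfrb met the filter by their SMC-TAZ-4SA values alone, so that a fall was not possible. The list went from a sum of 1.76 to 2.11 FPKM in SMC-Ctrl to one of 350 to 399 FPKM in SMC-TAZ-4SA, led by Col1a1 (log2 8.09), Pdgfrb (6.01) and Col1a2 (4.37). The other 4 were below the filter and went both ways. Dcn was at 0.151 ± 0.0259 and 0.0129 ± 0.0115 FPKM and Fap at 0.0868 ± 0.00531 and 0.0412 ± 0.0178 FPKM (SD, n = 3), both with every SMC-TAZ-4SA library under every control. Pdgfra was at 0.323 ± 0.0613 FPKM in SMC-Ctrl and 0.832 ± 0.156 FPKM in SMC-TAZ-4SA, with every SMC-TAZ-4SA library above every control. Lum reached at most 0.0186 FPKM. Of 7 lung epithelial markers 3 were tested, of which Ager rose (log2 1.17), 1 fell and 1, Foxj1, missed the threshold. The lower one, the club cell gene Scgb1a1, went from 18.1, 23.8 and 21.1 FPKM in SMC-Ctrl to values listed at 0 in SMC-TAZ-4SA, and the list summed to 22.3 to 27.3 and 4.27 to 5.96 FPKM. Sftpc, below the filter, went from 1.83, 0.994 and 0.986 FPKM in SMC-Ctrl to values listed at 0 in SMC-TAZ-4SA. Krt5, Trp63 and Sftpb stayed under 1 FPKM in every library. Of 6 measured leukocyte markers 2 were tested, 1 of them higher (Csf1r, log2 2.07), with sums of 0.914 to 1.20 and 3.68 to 4.51 FPKM and with Ptprc at no more than 0.0395 FPKM. Of 5 endothelial markers 1 was tested and was higher (Kdr, log2 1.10), with sums of 0.600 to 0.659 and 2.08 to 2.47 FPKM. Kdr, with means of 0.468 and 2.14 FPKM, made up most of both sums. The untested endothelial markers went both ways. Pecam1 (means of 0.101 and 0.033 FPKM) and Tek (0.0577 and 0.0144 FPKM) had every SMC-TAZ-4SA library under every control. Cdh5 was listed at 0 in SMC-Ctrl and stood at 0.0622 FPKM or more in SMC-TAZ-4SA, and Emcn was listed at 0 throughout. The part of other cells in the SOX differences was not tested.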

How the data were processed

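Total RNA of the 6 libraries was sequenced as read pairs and, per the study's methods and the submitters' processing notes, mapped to mm10 with STAR 2.6. The authors deposited FPKM values, 1 column per library. For the tool and annotation behind them and the use of strand, nothing is given in the sources used here. The study's own tests used DESeq2 on counts, which does not suit FPKM. Columns were matched to sample titles, from which groups and replicate numbers were taken.

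Of 23847 lines and 23361 symbols, 254 symbols on several lines were left out. Genes at 1 FPKM or more in at least 3 of 6 libraries (12141) were tested on log2(FPKM + 1) with limma 3.58.1 in R 4.3.3 (a model with group alone, moderated variances that follow the mean level, 2-sided). P-values were adjusted by Benjamini-Hochberg across the whole set of tested genes. The script was tested on simulated data. In fits that leave out a library, 1 FPKM in at least 2 libraries was required.

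The members and gene lists were chosen with earlier results of these data known, and the motifs after the promoter sequences were read. Every SOX gene is named, and of each list at most 3 tested genes per direction by fold change and markers at 0. Values of 2 marker genes that fall under this rule are not reported here. A few more are named to give the levels of other cells and of untested cartilage genes, chosen after their values were seen. Promoters came from RefSeq (GRCm38.p6), gene positions from GENCODE M21. Alternatives varied the pseudocount, filter, scaling, variance model, replicate block and libraries.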

Additional observations from a re-analysis of the deposited data

How the results depend on the processing

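Each member's fold change was recomputed under 15 alternatives. All 150 values kept their direction, and 149 kept their side of the threshold. The exception was Sox2, which passed without SMC-TAZ-4SA replicate 1 (0.33). The cause was not tested. Leaving out 1 library gave 9 to 10 members called, 9173 to 10227 genes called in all and a summed SOX level of 37.2% to 44.6% of SMC-Ctrl, against 40.3% with all libraries. Scaled to the same total, 3984 genes were higher and 5883 lower (40.4% of the called genes higher in place of 50.6%, as deposited 4939 and 4815), and the median log2 fold change of all genes was −0.18 in place of 0.02. With the upper quartile it was −0.12, and 43.4% of the called genes were higher. Members still called were 2 higher and 7 lower under each of these scalings, and the summed level was 34.8% to 36.4% of SMC-Ctrl.

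The labels give both groups the replicate numbers 1 to 3. Same-numbered libraries deviated from their group means with correlations of −0.31 to −0.06 across genes, and 0 of 6 libraries correlated best with its own number. With 3 libraries a group, such deviations cannot show whether same-numbered libraries shared a culture or preparation, so whether the numbers mark pairs is unknown. With the replicate block 9350 genes were called, and 9 members, with Sox2 at an adjusted p of 0.0874.

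FPKM keeps no depth, so the values of Sox1, Sox5, Sox6 and Sox13 in SMC-TAZ-4SA and of Sox9 in SMC-Ctrl can rest on few fragments, and the size of their fold changes and of that of Sox21 is set in part by the pseudocount.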
